A study of Arabidopsis thaliana with 24 samples.

Results

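Leaves of the Arabidopsis thaliana line acx1-2, called ACX here, were profiled 1 h after spraying with the synthetic auxin 2,4-D (2,4-dichlorophenoxyacetic acid) and compared with leaves of the same line at 0 h. The comparison rests on 3 Affymetrix ATH1 arrays titled as ACX at 1 h and 6 titled as ACX at 0 h, which are 9 of the 24 arrays of the study. All plants were in the Col-0 background, and acx1-2 is a single insertion line from the SALK collection, so that effects of the insertion in ACX1 cannot be told apart from other features of that line. Herbicide plants received 23 mM 2,4-D in 1% dimethyl sulfoxide and 1% ethanol, and control plants received the solvents alone. Each replicate pooled leaves of similar size and stage from at least 5 plants. Whether the 0 h arrays are the solvent controls, and when their leaves were taken, is not stated in the sources used here, so the changes below are not separated from effects of the spray, the solvents or the hour of sampling. Used for comparison were WT (unmodified Col-0) at 0 h (6 arrays) and 1 h (3 arrays) and ACX at 72 h after the herbicide (3 arrays). The level of ACX1 itself was not analysed here, because the annotation names no probe set for it.

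2,4-D mimics the natural auxin indole-3-acetic acid. Auxins join TIR1/AFB receptor proteins to Aux/IAA repressors, which are then destroyed, and this frees the auxin response factors to switch on early genes, among them the GH3 genes, whose enzymes attach amino acids to auxin, and the Aux/IAA genes themselves. ACX1 encodes an acyl-CoA oxidase that opens peroxisomal beta-oxidation, the route that shortens fatty acids and completes the jasmonate precursor in leaves. Plants modify foreign compounds by oxidation, by joining them to sugars or glutathione, and by moving the products into the vacuole.

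Each probe set, a group of short probes for a transcript, has a deposited log2 expression value on every array, and all levels and changes below are on that log2 scale, where 1 unit is 2-fold. Array medians of the 9 arrays lay between 5.95 and 6.07. Arrays of the same time correlated across probe sets at r = 0.974 to 0.993 at 0 h and 0.981 to 0.991 at 1 h, against 0.932 to 0.965 between the times. ACX 0 h replicates 3 and 6 stood apart from the other 4 arrays at 0 h: they correlated at 0.99 with each other and at 0.974 to 0.986 with the rest, and on the first principal component of the 0 h and 1 h arrays they read -7.02 and -4.23, where the other 4 read -37.2 to -24.4 and the 1 h arrays 45.1 to 75.6. Their mean was at least 2-fold above that of the other 4 arrays for 433 probe sets and at least 2-fold below it for 248. The cause was not tested, and the leading counts are given with and without them. Of the leaf markers, the mesophyll gene RCA, which encodes Rubisco activase, read 14.28 to 14.46 at 0 h and 14.12 to 14.18 at 1 h, and the trichome gene TRY read 6.40 to 8.18 and 6.78 to 7.19. Among 3 stomatal lineage genes, FMA fell by 0.42 (limma adjusted p = 0.0281), a call lost under 8 of 21 alternative settings, while SPCH and MUTE lay between 4.16 and 4.77 on all 9 arrays. No marker of vascular tissue, roots or flowers could be read through the annotation. In such whole-leaf RNA, fewer cells of a type and less RNA per cell cannot be told apart.

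Of 22746 probe sets, 5367 (23.6%) differed between 1 h and 0 h in ACX by limma at an adjusted p below 0.05, with 2469 (10.9%) higher and 2898 (12.7%) lower at 1 h. The balance depended on the scaling, since 2705 were higher and 2597 lower after each array was set to a common median. The sizes differed between the directions. At least 2-fold changes were nearly even, with 813 probe sets higher (3.57%) and 815 lower (3.58%), but 263 were at least 4-fold higher against 124 lower, 87 at least 8-fold higher against 16 lower, and 31 at least 16-fold higher against 2 lower. All 10 changes of at least 32-fold were increases. The other 3739 called probe sets changed less than 2-fold, and the median change over all probe sets was -0.018 with a median standard error of 0.128. All 3 arrays at 1 h lay above all 6 at 0 h for 2129 probe sets (9.36%) and below them for 2599 (11.4%). Without ACX 0 h replicates 3 and 6, 2766 probe sets were higher and 3330 lower. Without ACX 1 h replicate 3 the total of 5367 dropped to 3478. With 1 probe set for each of 13350 named genes, 1265 genes (9.48%) were higher and 1540 (11.5%) lower, and these shares are the background for the gene groups below. The p-values rest on a spread between pools of plants that was estimated over all 24 arrays of both genotypes, and ACX is 1 line in 1 study. With only the ACX arrays at 0 h and 1 h in the fit, 4356 probe sets were called.

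**Figure D1:**
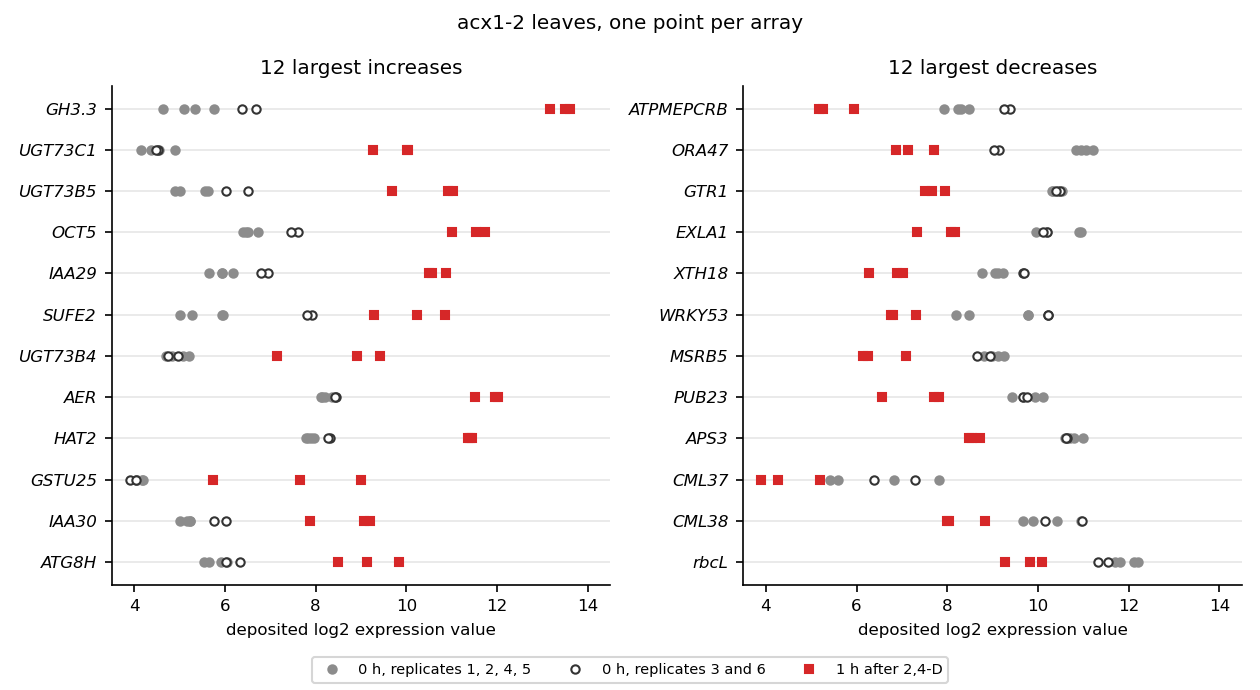
Deposited log2 expression values of the 12 genes with the largest increases (left) and the 12 with the largest decreases (right) in acx1-2 leaves, one point per array; grey and open circles are the 6 arrays at 0 h, with replicates 3 and 6 open, and red squares the 3 arrays at 1 h after 2,4-D. The genes were chosen so that squares and circles do not overlap, and the open circles lie toward the squares for several induced genes such as SUFE2 and OCT5.

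The auxin response led the increases. GH3.3 (AT2G23170) read 4.63 to 6.69 on the 6 arrays at 0 h, with a median of 5.56, and 13.18, 13.50 and 13.61 on the 3 arrays at 1 h. The groups lay far apart, and the rise was the largest of any named gene at 220-fold (log2 change 7.78, SE 0.30, adjusted p = 5.08e-14). ACX 0 h replicate 3 was the highest of the 0 h arrays. WES1 (AT4G27260), another GH3 enzyme gene with auxin and salicylic acid among its known substrates, rose from 6.75 to 7.26 (median 7.01) to 9.64, 9.67 and 9.89 (log2 change 2.75, SE 0.17, adjusted p = 8.36e-11). The groups again lay clear of each other. GH3.1 rose by 0.79 (adjusted p = 0.00892), with values of 5.78, 5.82 and 5.10 at 1 h, the last of which fell inside the 0 h range of 4.36 to 5.11. The call on GH3.1 was lost without ACX 1 h replicate 1 or 2. The remaining measured GH3 genes did not pass, GH3.17 at 0.17 and GH3.9 at -0.34 (adjusted p = 0.189 and 0.0531). Thus 3 of 5 GH3 genes rose and 0 fell, with a median change of 0.79 against -0.015 over all genes.

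Among Aux/IAA repressor genes 2 of 7 measured members rose and 0 fell, and the median was 0.07. IAA29 (AT4G32280) read 5.66 to 6.95 at 0 h (median 6.06) and 10.88, 10.50 and 10.57 at 1 h, a rise of 4.41 (SE 0.37, adjusted p = 9.03e-09). IAA30 (AT3G62100), which lacks the degradation motif of most Aux/IAA proteins, read 5.02 to 6.02 (median 5.23) and then 7.88, 9.06 and 9.21, a rise of 3.31 (SE 0.26, adjusted p = 2.62e-09). Both were far from the 5 other members, IAA18, IAA20, IAA31, IAA33 and IAA34, whose changes lay between -0.08 and 0.09. HAT2 (AT5G47370), a homeodomain-leucine zipper regulator gene that auxin is known to induce, varied little between pools. It read 7.79 to 8.31 at 0 h and 11.4, 11.37 and 11.46 at 1 h (log2 change 3.4, SE 0.15, adjusted p = 5.35e-13). LBD16 and LBD29, auxin targets in root branching, changed by 0.07 and -0.02 and lay between 4.15 and 4.61 on all 9 arrays. EIN3, the main transcription factor of the ethylene pathway, rose by 0.50 (adjusted p = 0.000477). Of the genes for auxin synthesis, YUC2 had a change of 0.48 (adjusted p = 0.0452) that was not called under 9 of 20 alternative settings, and YUC4 and YUC6 did not pass at -0.10 and -0.14.

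Sugar-conjugating enzymes formed the next group. Of 51 members of the UDP-glycosyltransferase family 16 rose (11 of them at least 2-fold) and 4 fell, with a median of 0.16, and without ACX 0 h replicates 3 and 6 there were 16 and 3. Of a shorter list of 21 such genes, written for herbicide and hormone conjugation, 11 were measured, of which 9 rose and 0 fell, with a median of 2.92. The short list was written with earlier results of these data known, so its share is given as a description. The UGT73 genes were prominent. UGT73C1 (AT2G36750), whose enzyme can glucosylate cytokinins, read 4.14 to 4.90 at 0 h (median 4.5) and 9.26, 10.04 and 10.01 at 1 h, 38.8-fold more (log2 change 5.28, SE 0.25, adjusted p = 1.42e-12). Every array at 1 h lay far above every array at 0 h. UGT73B5 (AT2G15480) read 4.89 to 6.52 (median 5.59) and then 9.69, 10.91 and 11.04, a rise of 4.94 (SE 0.32, adjusted p = 1.53e-10). UGT73B4 (AT2G15490), its neighbour by locus number, read 4.71 to 5.21 and then 7.14, 8.92 and 9.43, a rise of 3.57 (SE 0.32, adjusted p = 3.14e-08). ACX 1 h replicate 1 was the lowest of the 3 arrays for all 3 of these genes, and without it the change of UGT73B4 was 4.25. UGT73B1 had no such gap, with 5.65 to 6.61 at 0 h and 9.22, 8.98 and 9.55 at 1 h (log2 change 2.92, SE 0.19, adjusted p = 2.43e-10). UGT73C2, next to UGT73C1 by locus number, changed by 0.09 and stayed between 3.81 and 4.25 on all 9 arrays. Probe sets of close relatives in this and other gene families can bind each other's transcripts, which the deposited values do not resolve.

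Outside the UGT73 genes, IAGLU (AT4G15550), which attaches glucose to indole-3-acetic acid, read 7.13 to 8.08 at 0 h and 10.67, 10.83 and 11.15 at 1 h, a rise of 3.24 (SE 0.22, adjusted p = 3.68e-10). UGT76B1 (AT3G11340), which acts on isoleucic and salicylic acids, varied widely between pools at 1 h, with 7.91, 9.37 and 10.68 against 5.79 to 6.82 at 0 h. Its change of 3.0 (SE 0.41, adjusted p = 8.5e-06) was 3.71 without ACX 1 h replicate 1 and 2.33 without replicate 3. GT72B1 (AT4G01070), known for joining sugars to chlorinated phenols and anilines, was already at 9.33 to 9.86 at 0 h and reached 10.97, 11.93 and 12.07 (log2 change 2.09, SE 0.26, adjusted p = 2.62e-06). UGT76E11 rose by 2.30. UGT73C7 (0.47) and UGT74F1 (0.39, a salicylic acid glucosyltransferase gene) also passed, and UGT84B1 did not at -0.18. Without ACX 1 h replicate 3 the change of UGT73C7 was 0.19 (adjusted p = 0.211). The rise in this family was therefore spread over several subfamilies and a wide span of starting levels.

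Other families of detoxifying enzymes held members that rose and members that fell. AER (AT5G16970), an alkenal reductase that removes reactive aldehydes formed from oxidized lipids, read 8.11 to 8.46 at 0 h and 11.52, 11.95 and 12.02 at 1 h, 11.7-fold more (log2 change 3.55, SE 0.14, adjusted p = 1.27e-13). GSTU25 (AT1G17180), a glutathione transferase gene, read 3.91 to 4.19 at 0 h and spread widely at 1 h, with 5.74, 7.65 and 9.01. Its rise of 3.4 (SE 0.48, adjusted p = 1.42e-05) ranged from 2.63 to 4.26 when single arrays were left out. GSTU16 rose by 1.15 (adjusted p = 4.14e-06), whereas GSTU27 (-1.17, adjusted p = 0.00203) and GSTU18 (-0.69, adjusted p = 0.000294) fell, so that of 14 glutathione transferase genes 2 rose and 2 fell, a share close to the background. Aldehyde dehydrogenases also divided, with 2 of 8 higher and 3 lower. ALDH7B4 (AT1G54100), a stress-induced member, went from 8.24 to 8.72 at 0 h to 11.04, 11.03 and 11.86, a rise of 2.83 (SE 0.18, adjusted p = 1.51e-10). ALDH3F1 (-0.69), ALDH11A3 (-0.46) and ALDH22A1 (-0.39) fell. Of 24 cytochrome P450 genes, most of them of the CYP71B subfamily, 1 rose and 8 fell, none of them 2-fold. CYP71B28 fell most, by 0.93 (SE 0.18, adjusted p = 0.000544), and without ACX 0 h replicates 3 and 6 there were 1 and 6. Without ACX 1 h replicate 3 the P450 counts were 0 and 5.

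Transport, sulfur and respiration genes also held members that rose. OCT5 (AT1G79410), of the organic cation and carnitine transporter family, read 6.39 to 7.62 at 0 h (median 6.61) and 11.01, 11.54 and 11.73 at 1 h, a rise of 4.56 (SE 0.32, adjusted p = 4.72e-10). Its relative OCT4 rose by 1.45 (adjusted p = 1.21e-05), and OCT1 did not change detectably at -0.04. SUFE2 (AT1G67810), whose protein activates sulfur release for iron-sulfur clusters, read 5.02 to 7.93 at 0 h and 9.28, 10.24 and 10.85 at 1 h (log2 change 3.80, SE 0.48, adjusted p = 3.72e-06). For SUFE2 the 2 highest arrays at 0 h were replicates 3 and 6, at 7.93 and 7.82, and the rest lay at or below 5.95. NDB2 (AT4G05020), an alternative NADH dehydrogenase of mitochondria, rose by 1.98 (SE 0.40, adjusted p = 0.000824), from 8.29 to 9.79 at 0 h to 10.21, 11.29 and 11.29. ATHSP22.0, a small heat shock protein gene of the endoplasmic reticulum, rose by 1.24 (adjusted p = 2.42e-06), from 4.28 to 4.59 at 0 h to 5.12, 5.52 and 6.30. The folding genes BZIP60 (0.53), ATERDJ3B (0.01) and CRT1b (-0.11) did not pass. SWEET4 (AT3G28007), a sugar transporter gene, rose by 2.87 (SE 0.34, adjusted p = 1.33e-06), and the vacuolar members SWEET16 and SWEET17 fell by 1.31 and 0.91 (adjusted p = 0.00182 and 0.000232). The other 13 of 16 SWEET genes did not pass. Among subtilases, a family of secreted proteases, SBT3.5 rose by 2.85, SBT3.3 by 1.79 and ATSBT5.2 by 1.70, while SBT1.3 fell by 1.11 and SBTI1.1 by 0.55, the last call being lost under 14 of 21 alternative settings.

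The largest increases with no symbol in the annotation were AT1G10585 and AT5G51830. AT1G10585 read 4.63 to 5.26 at 0 h and 11.29, 11.71 and 12.16 at 1 h, a 114-fold rise (log2 change 6.84, SE 0.25, adjusted p = 2.84e-14). AT5G51830 read 5.65 to 7.28 and then 11.22, 11.91 and 12.35, a 48.5-fold rise (log2 change 5.60, SE 0.30, adjusted p = 9.42e-12). Only GH3.3 among the genes with a symbol rose more than either.

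Autophagy genes, which build the vesicles that carry cell contents to the vacuole, moved one way. Of 11 measured members 5 rose and 0 fell, with a median of 0.63 against -0.015 over all genes, and without ACX 0 h replicates 3 and 6 there were 6 and 0. Without ACX 1 h replicate 3, 4 rose and the median was 0.36. ATG8H (AT3G06420), one of the ubiquitin-like ATG8 proteins that coat the vesicle, stood far above the rest. It read 5.55 to 6.34 at 0 h and 8.50, 9.14 and 9.85 at 1 h (log2 change 3.24, SE 0.25, adjusted p = 2.22e-09). ATG8B rose by 1.24 (adjusted p = 0.000969), with ACX 1 h replicate 3 at 8.53 and the others at 6.89 and 7.10. The further calls were APG8A (0.94), APG8H (AT3G15580, 0.52) and AT5G66930, which the annotation also lists as ATG101 (0.66). ATG8C, ATG8D, ATG8E, ATG8F, ATG8G and ATG3 lay between 0.24 and 0.70 and did not pass.

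Peroxisome division and import genes rose modestly. BIGYIN (AT3G57090), a FIS1 protein needed for the division of peroxisomes and mitochondria, read 8.37 to 9.34 at 0 h and 9.48, 10.09 and 10.47 at 1 h, a rise of 1.12 (SE 0.18, adjusted p = 5.59e-05). Its relative FIS1B rose by 0.63 (adjusted p = 0.00134) and PEX4, an import factor, by 0.35 (adjusted p = 0.0299), the latter call being lost under 8 of 21 alternative settings. These were the 3 measured members of their list. Of the beta-oxidation genes, AIM1 had a change of 0.28 (adjusted p = 0.0414), not called under 11 of 21 settings, and the glyoxylate cycle gene ICL changed by -0.11 (adjusted p = 0.511). OPCL1, which activates the jasmonate precursor that ACX1 then shortens, fell by 0.97 (SE 0.20, adjusted p = 0.000931), from 10.04 to 10.88 at 0 h to 9.07, 9.51 and 9.74.

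A small set of genes for the breakdown of branched-chain amino acids and methionine also rose, 4 of 5 with a median of 1.52. The set was put together after earlier results were known and is given as a description. IVD (AT3G45300), isovaleryl-CoA dehydrogenase of leucine breakdown, read 6.69 to 7.15 at 0 h and 9.33, 8.73 and 9.71 at 1 h (log2 change 2.37, SE 0.17, adjusted p = 7.1e-10). MGL (AT1G64660), methionine gamma-lyase, read 5.56 to 5.99 and then 7.38, 7.27 and 8.53, a rise of 1.92 (SE 0.22, adjusted p = 9.67e-07). MCCA, a subunit of methylcrotonyl-CoA carboxylase in the leucine route, rose by 1.52 (SE 0.25, adjusted p = 8.54e-05), while the partner subunit gene MCCB had a change of 0.26 (adjusted p = 0.383). ALDH6B2, of valine breakdown, rose by 0.52 (adjusted p = 0.0137). In each of the 4, ACX 1 h replicate 2 was the lowest array at 1 h. Of the cold and dehydration genes the dehydrin LTI30 rose by 2.5 (SE 0.48, adjusted p = 0.00049), from 4.4 to 6.56 at 0 h to 6.93, 8.06 and 9.06, and COR47 by 1.02 (adjusted p = 0.0165) with overlapping arrays. COR15A (-0.01) and COR15B (0.24) did not pass.

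**Figure D2:**
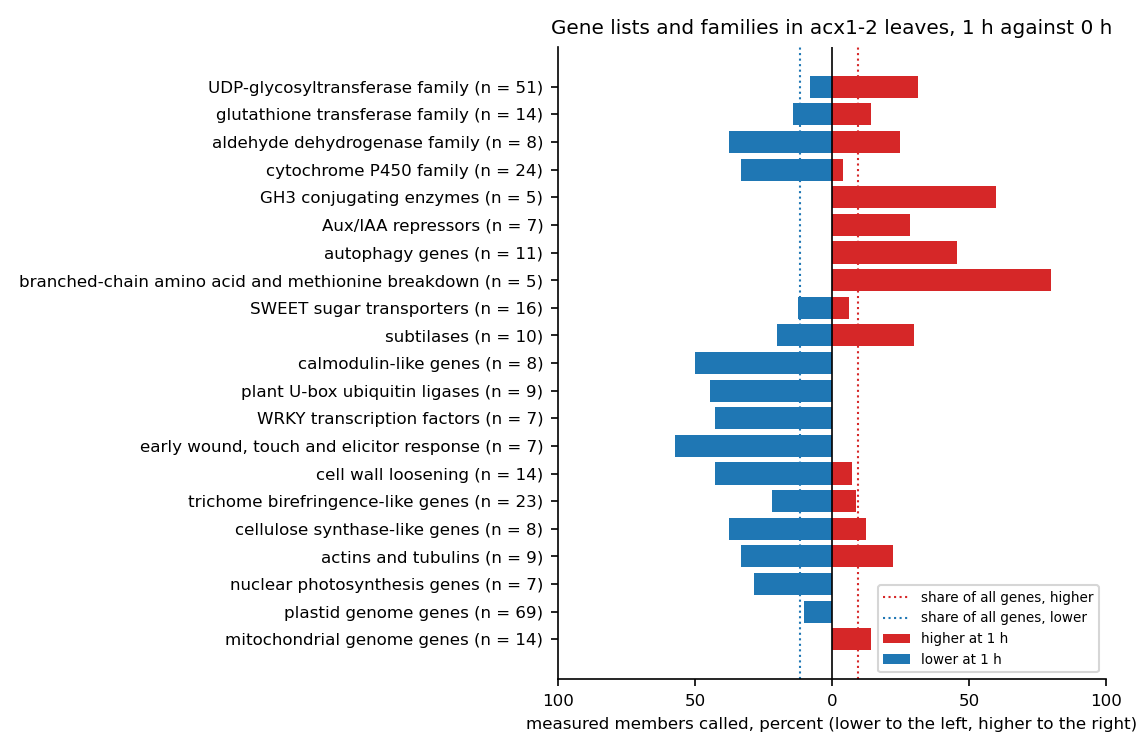
Share of the measured members of 21 gene lists and families that were called higher (red, to the right) or lower (blue, to the left) at 1 h in acx1-2 leaves, in percent of the members measured (n in brackets), with dotted lines at the shares of all genes, 9.48% higher and 11.5% lower. GH3, autophagy and amino acid breakdown genes extend to the right, and calmodulin-like, U-box, WRKY and wall loosening genes to the left. Some genes are counted in more than 1 group.

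Among the decreases, regulators of stress responses were frequent. A list of 36 genes held those known to rise quickly when a leaf is wounded, touched or meets a microbial signal. Of its 7 measured members 4 fell (CML37, WRKY22, PUB22 and PUB23) and 0 rose, with a median of -1.6. Of 13 listed oxidative stress genes 4 were measured, of which STZ, WRKY53 and CML38 fell and NDB2 rose. ORA47 (AT1G74930), a transcription factor gene that activates jasmonate synthesis, read 9.02 to 11.22 at 0 h (median 10.89) and 7.13, 6.86 and 7.70 at 1 h, a fall of 3.14 (SE 0.42, adjusted p = 6.31e-06). Its 2 lowest arrays at 0 h were replicates 3 and 6. WRKY53 (AT4G23810), a regulator of senescence and defence, read 8.19 to 10.23 and then 6.81, 6.76 and 7.30, and fell by 2.49 (SE 0.39, adjusted p = 5.1e-05). WRKY22 fell by 2.00 (SE 0.27, adjusted p = 1e-05) and ZAP1 by 0.55 (adjusted p = 0.00419). The 4 other WRKY genes measured, WRKY6, WRKY20, WRKY42 and WRKY47, did not pass, with changes between -0.81 and 0.17. STZ (AT1G27730), a zinc finger repressor gene induced by many stresses, went from 11.17 to 11.92 at 0 h to 8.91, 9.88 and 10.14, a fall of 1.81 (SE 0.24, adjusted p = 6.05e-06).

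Calcium sensor and ubiquitin ligase genes were also among the decreases, in families that share members with the lists above. CML37, PUB22 and PUB23 were already counted in the wound list and CML38 in the oxidative stress list, as WRKY22 and WRKY53 were for the WRKY family. The counts are therefore not separate observations. Of 8 calmodulin-like genes 4 fell and 0 rose, with a median of -1.02. CML38 (AT1G76650) read 9.67 to 10.98 at 0 h and 8.00, 8.04 and 8.83 at 1 h (log2 change -2.06, SE 0.37, adjusted p = 0.000235). CML37 (AT5G42380) varied widely at 0 h, from 5.42 to 7.82, and read 3.9, 4.26 and 5.2 at 1 h (log2 change -2.10, SE 0.44, adjusted p = 0.00111). CML23 fell by 1.89 and CML41 by 1.84. The remaining members did not pass, and CML42 spanned 7.62 to 10.33 at 0 h. Of 9 plant U-box ubiquitin ligase genes 4 fell and 0 rose, with a median of -1.03. PUB23 (AT2G35930), which damps immune signalling together with PUB22, read 9.43 to 10.12 and then 6.56, 7.71 and 7.81, a fall of 2.40 (SE 0.28, adjusted p = 9.67e-07). PUB22 fell by 1.60, PUB25 by 1.43 and PUB26 by 1.90 (adjusted p = 7.84e-05, 0.000367 and 0.000319). PUB24, of the same immune group, had a change of -1.03 that did not pass (adjusted p = 0.0812), its 0 h arrays ranging from 6.97 to 9.26. Without ACX 0 h replicates 3 and 6 the U-box median was -0.58, with the count of 4 unchanged.

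Several wall genes fell. ATPMEPCRB (AT4G02330), a pectin methylesterase gene, read 7.93 to 9.38 at 0 h (median 8.4) and 5.94, 5.17 and 5.26 at 1 h, a fall of 3.14 (SE 0.34, adjusted p = 3.94e-07). Of 14 measured wall loosening genes 6 fell and 1 rose, with a median of -0.80, and without ACX 0 h replicates 3 and 6 there were 7 and 1. XTH18 (AT4G30280), a xyloglucan-modifying enzyme gene, read 8.76 to 9.69 and then 6.27, 6.90 and 7.03, a fall of 2.52 (SE 0.29, adjusted p = 1.17e-06). EXLA1 (AT3G45970), an expansin-like gene, fell by the same 2.52 (SE 0.41, adjusted p = 8.38e-05), from 9.95 to 10.96 at 0 h to 7.34, 8.18 and 8.08. XTH32 fell by 1.22, EXLA2 by 0.98, EXPB3 by 0.88 and EXLA3 by 0.36. Against these, the expansins EXPA4 and EXPA16 rose by 1.39 (adjusted p = 0.000237) and 1.34 (adjusted p = 0.000148). Over whole families 2 of 10 XTH genes fell and 0 rose, and of 19 expansin genes 5 fell and 2 rose. XTH16 and XTH19 had changes of -1.13 and -0.71 that did not pass. Among genes for hemicellulose synthesis CSLA03, a glucomannan synthase gene, fell by 1.49, CSLC04, a xyloglucan backbone gene, by 0.76, and CSLC12 by 0.47, while CSLD2 rose by 0.55 (adjusted p = 0.0334), a call lost under 8 alternative settings. In the TBL family, several of whose members acetylate wall polysaccharides, 2 of 23 rose and 5 fell, with TBL37 up by 2.32 (SE 0.12, adjusted p = 5.73e-12) and TBL28 down by 1.67 (SE 0.19, adjusted p = 1.12e-06). Of 9 actin and tubulin genes TUA1 (0.62) and TUB9 (0.44) rose while TUB5 (-0.86), ACT11 (-0.80) and TUA6 (-0.78) fell, none of them 2-fold.

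Glucosinolate transport and sulfate activation genes fell with little spread between pools. GTR1 (AT3G47960), which imports the sulfur-rich defence compounds called glucosinolates into cells, read 10.32 to 10.54 at 0 h and 7.51, 7.95 and 7.67 at 1 h, 6.55-fold less (log2 change -2.71, SE 0.16, adjusted p = 4.98e-11). Its partner GTR2 fell by 0.73 (SE 0.17, adjusted p = 0.0021). APS3 (AT4G14680), an ATP sulfurylase that activates sulfate, read 10.59 to 10.99 and then 8.54, 8.73 and 8.47, a fall of 2.14 (SE 0.13, adjusted p = 4.07e-11). MSRB5, a methionine sulfoxide reductase gene, fell by 2.46 (SE 0.31, adjusted p = 3.93e-06) from 8.65 to 9.25 at 0 h to 6.15, 6.26 and 7.09, while MSRB3 rose by 0.71 (adjusted p = 0.00404). MSRB6 and MSRB9 did not pass at -0.70 and -0.71. The cytokinin response regulator ARR15 fell by 1.07 (adjusted p = 0.0141), and RR16 did not pass at 0.04. The call on ARR15 was lost under 2 of 21 alternative settings, over which its change ranged from -1.26 to -0.55. The largest decreases with no symbol were AT5G17350, from 9.17 to 10.58 at 0 h to 5.58, 5.51 and 6.10 (log2 change -4.02, SE 0.27, adjusted p = 3.23e-10), and AT4G29780, from 10.36 to 11.53 to 6.93, 7.71 and 7.48 (log2 change -3.48, SE 0.25, adjusted p = 1.09e-09). Both fell more than any gene with a symbol.

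Chloroplast genes moved little, with exceptions in the plastid genome. Of 69 genes encoded there 7 fell (3 of them at least 2-fold) and 0 rose, with a median of -0.18, a share close to that of all genes. Over the alternative settings between 3 and 16 fell, and the median ranged from -0.31 to 0.02. The large Rubisco subunit gene rbcL read 11.32 to 12.21 at 0 h and 9.83, 10.09 and 9.27 at 1 h, a fall of 2.05 (SE 0.26, adjusted p = 3.19e-06). The photosystem I gene psaC fell by 1.07 and the ribosomal protein gene rps16 by 1.04, while the photosystem II genes psbE, psbF and psbH had falls of 0.44 to 0.28. The call on rps16 was lost under 3 of 21 alternative settings, and its change was -0.52 with 0 h replicates 4 to 6 only. Of 7 nuclear photosynthesis genes RCA (-0.21) and LHCB4.2 (-0.31) fell, 0 to 3 falling over the alternative settings, and PSAN, PSBY and PRK changed by -0.03 to -0.12 without passing. CHLM, of chlorophyll synthesis, fell by 0.63 (adjusted p = 0.00104). Of the antioxidant enzyme genes TAPX had a change of -0.28 (adjusted p = 0.0334), not called under 10 of 21 alternative settings, and GR1, GR and SAPX did not pass. In the mitochondrial genome nad6 rose by 1.89 (adjusted p = 1.8e-05), from 4.83 to 5.24 at 0 h to 5.85, 7.31 and 7.67, and nad5 by 0.59. GAPC2, often used as a reference gene, changed by -0.01.

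The size of the response in each pool was described with probe sets chosen by their change in WT, where the ACX arrays entered only through the shared estimate of the spread. The 835 probe sets (3.67% of all) that were at least 2-fold higher at 1 h in WT had median differences from the ACX 0 h mean of 1.11, 1.51 and 1.82 in ACX 1 h replicates 1, 2 and 3. In the 6 ACX arrays at 0 h their medians ran from -0.22 to 0.29, replicates 3 (0.289) and 6 (0.191) being the highest. The 789 probe sets (3.47%) at least 2-fold lower in WT had medians of -0.99, -1.17 and -1.31 at 1 h and from -0.38 to 0.22 at 0 h. ACX 1 h replicate 1 thus had the smallest and replicate 3 the largest shift both ways, and 0 h replicates 3 and 6 lay a short way toward the 1 h state. Of the 835, 713 (85.4%) were called higher in ACX, and of the 789, 648 (82.1%) were called lower.

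**Figure D3:**
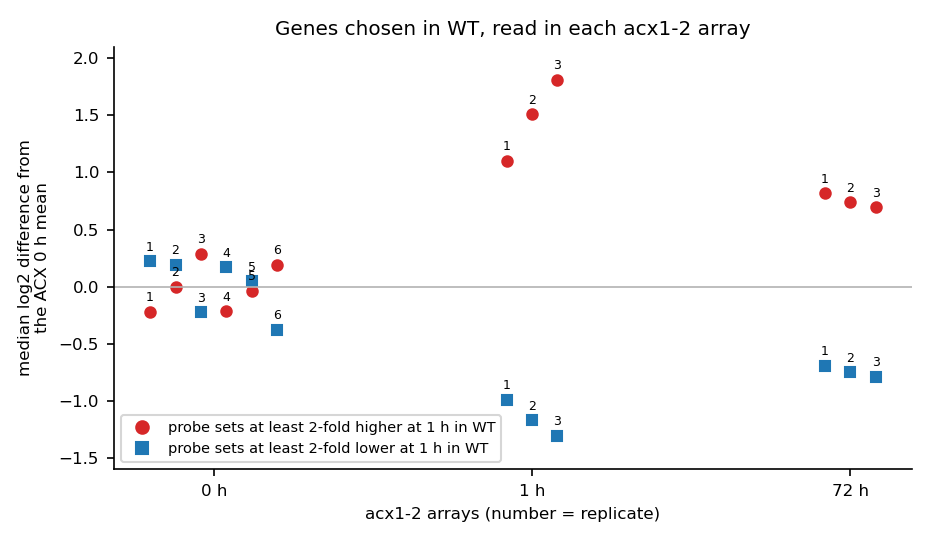
Median log2 difference from the acx1-2 0 h mean, in each acx1-2 array at 0, 1 and 72 h (numbers are replicates), of the 835 probe sets at least 2-fold higher (red circles) and the 789 at least 2-fold lower (blue squares) at 1 h in WT. The 3 arrays at 1 h lie at 1.11 to 1.82 and -1.31 to -0.99, clear of the 0 h arrays, and those at 72 h lie in between.

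Whether the change in ACX differed from that in WT was tested directly as the difference of the 2 changes. In WT 6068 probe sets (26.7%) differed between 1 h and 0 h, 2509 (11%) higher and 3559 (15.6%) lower. The difference of the changes passed for 33 of 22746 probe sets (0.145%), with 12 (0.0528%) more positive and 21 (0.0923%) more negative in ACX, and 1590 had an unadjusted p below 0.05. None of the 12 genes with the largest increases was among them, and all 12 also rose in WT. Of the 12 with the largest decreases 8 also fell in WT, and GTR1, XTH18 and APS3 passed the test of the difference. The count of 33 depended on the arrays used, at 0 h and at 1 h. It was 17 with 0 h replicates 1 to 3 of both genotypes, 1122 with replicates 4 to 6, and 70 without ACX 0 h replicates 3 and 6. Leaving out single arrays gave 6 (without ACX 1 h replicate 1) to 138 (without WT 0 h replicate 3).

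Most of these probe sets differed between the genotypes at 0 h and were closer at 1 h. Of the 33 probe sets 32 differed between ACX and WT at 0 h and 2 at 1 h, and the median size of the genotype difference was 1.0 at 0 h and 0.33 at 1 h, with 26 of the 33 larger at 0 h. Both of these use the same arrays as the test. All 21 with a more negative change were higher in ACX at 0 h, and 11 of the 12 with a more positive change were lower. The tested difference contains the 0 h genotype difference with its sign reversed, so choosing probe sets by it favours this pattern. The comparison at 0 h also has more arrays than that at 1 h, so the counts of 32 and 2 are not alike. No conclusion is drawn from the pattern or the counts. XTH18 read 6.79 to 7.86 in WT at 0 h, well under the 8.76 to 9.69 of ACX, and 8.27, 7.05 and 7.32 in WT at 1 h, so that its change of 0.26 in WT (adjusted p = 0.594) differed from that of -2.52 in ACX by -2.77 (SE 0.41, adjusted p = 0.00676). GTR1 fell in both, by 1.3 in WT from 9.38 to 10.04 at 0 h to 8.78, 8.53 and 7.92, and the difference was -1.42 (SE 0.23, adjusted p = 0.00954). APS3 also fell in both, by 0.99 in WT, and differed by -1.15 (SE 0.18, adjusted p = 0.00745). AT5G48570, listed also as the peptidyl-prolyl isomerase FKBP65 or ROF2, rose in both, by 1.21 in ACX and 3.5 in WT, a difference of -2.29 (SE 0.37, adjusted p = 0.00954). Its WT arrays at 0 h read 5.05 to 5.62 and those of ACX 6.89 to 7.58, while at 1 h the values were 8.79, 9.33 and 8.52 against 8.33, 8.30 and 8.78.

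The reverse pattern held for COR15A, a cold-regulated chloroplast protein gene. It fell by 2.75 in WT, from 9.13 to 10.19 at 0 h to 7.25, 7.06 and 6.69, whereas ACX read 7.16 to 7.76 at 0 h and 7.79, 7.54 and 7.08 at 1 h, a difference of 2.74 (SE 0.51, adjusted p = 0.0286). ACX was thus already near the level that WT reached at 1 h. EXPA16 rose by 1.34 in ACX and changed by -0.36 in WT (difference 1.70, SE 0.32, adjusted p = 0.0338), and AT5G03230 rose by 1.86 in ACX against -0.29 in WT (difference 2.15, SE 0.30, adjusted p = 0.00417). AT4G17470 fell by 1.33 in ACX, to 7.17, 7.03 and 7.17, and rose by 0.94 in WT, to 9.60, 8.92 and 7.68 (difference -2.27, SE 0.34, adjusted p = 0.00693). It was the only one of the named genes here whose level differed between the genotypes at 1 h (-1.61, adjusted p = 0.0337). AT3G55840 (-1.92), AT1G69840 (-1.20), AT1G14200 (1.13), AT2G45600 (1.08) and AT5G18760 (0.74) passed as well. Of the 12 genes named by the rule for this test only AT5G03230 kept its call in all 30 alternative fits. For the amino acid breakdown genes, whose changes in WT were smaller (IVD 1.38, MGL 0.55, MCCA 0.21), the difference did not pass.

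**Figure D4:**
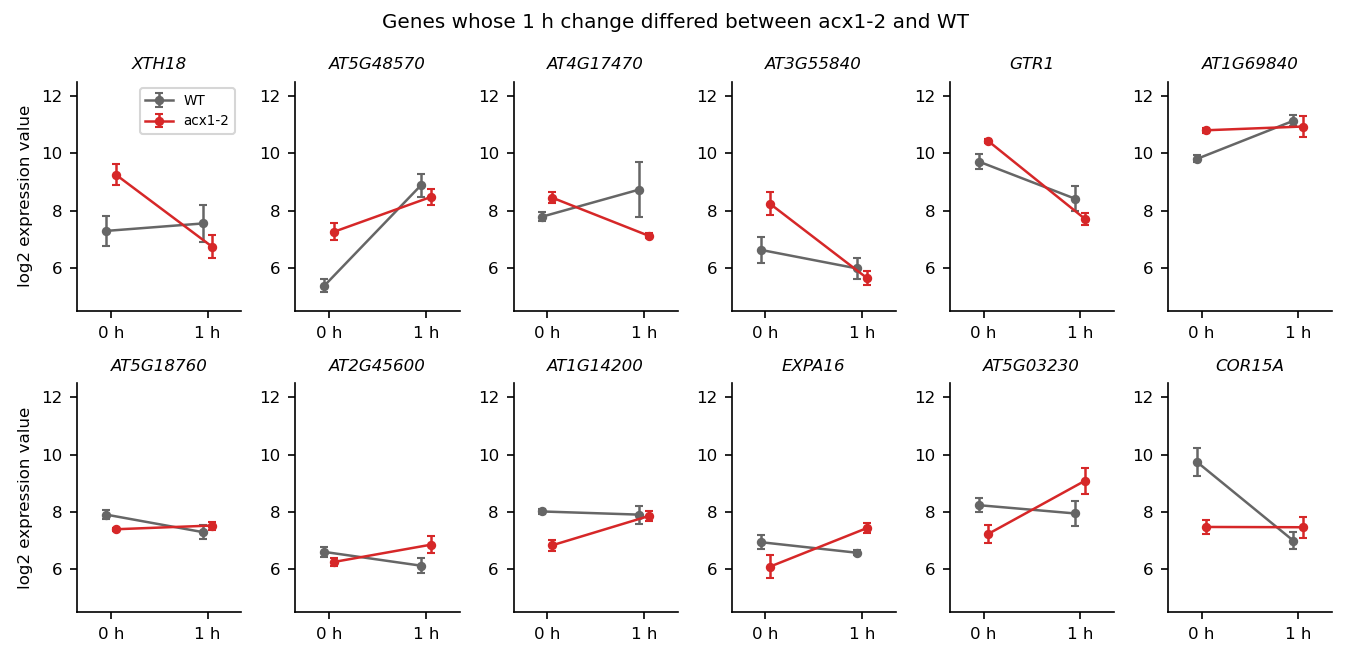
Mean log2 expression values with SD at 0 h (6 arrays) and 1 h (3 arrays) in acx1-2 (red) and WT (grey) for the 12 genes named for a different change at 1 h. For most genes the lines start apart at 0 h and meet or come closer at 1 h, as for XTH18, AT5G48570 and COR15A. The choice of genes by the tested difference favours this pattern.

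The 72 h arrays were compared with those at 1 h in ACX. A level lower or higher at 72 h than at 1 h does not tell whether the gene was back at its 0 h level. Against 1 h, 10509 probe sets (46.2%) differed at 72 h, 5374 (23.6%) higher and 5135 (22.6%) lower. When the arrays were first brought to a common median, the median of all changes went from -0.04 to -0.22, and 4199 were higher and 9218 lower, so that small changes at 72 h depend on the scaling. The values below are as deposited. Of the 813 probe sets at least 2-fold higher at 1 h, 397 were lower at 72 h than at 1 h, and of the 815 lower ones 280 were higher at 72 h. Both sets were picked on the same 1 h arrays, which favours a move back at 72 h. Among the auxin genes GH3.3 differed by 0.54 (adjusted p = 0.215), and WES1, HAT2 and GH3.1 rose further by 1.3, 1.01 and 2.93. Of the 7 measured Aux/IAA genes 1 was higher and 1 lower at 72 h than at 1 h. Of the full glycosyltransferase family of 51 genes, 16 were higher and 18 lower at 72 h than at 1 h (21.4% and 21.7% of all genes). Among the lower ones were the 9 of the short list that rose at 1 h, such as UGT73C1 (-3.14) and IAGLU (-2.08); these were picked as high on the same 1 h arrays. OCT5 (-4.2) and AER (-2.12) were lower as well. Autophagy genes went the other way, with 9 of 11 higher at 72 h than at 1 h, among them ATG8G (2.09), ATG8B (2.02) and APG8A (1.88), although ATG8H did not pass at -0.62. MGL (2.28), ALDH7B4 (2.04), LTI30 (2.90) and IVD (0.78) also rose further. Of the genes that had fallen, ORA47 (-1.88), STZ (-1.76), PUB22 (-2.13) and XTH18 (-1.72) fell again, while CML41 (4.55), PUB25 (2.77), EXPB3 (2.2), GTR2 (1.72) and rbcL (1.32) rose. The 72 h arrays were taken from older leaves than the 1 h arrays, and the part of leaf age was not tested.

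**Figure D5:**
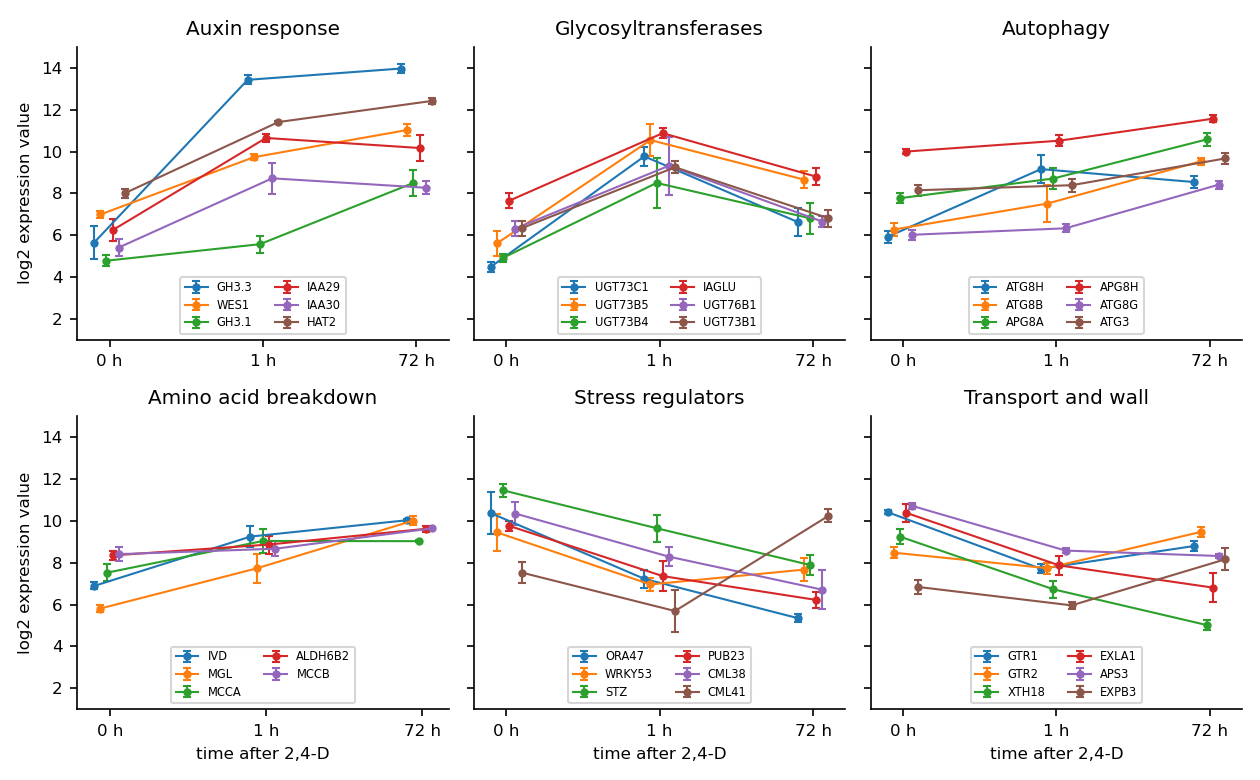
Mean log2 expression values with SD in acx1-2 leaves at 0 h (6 arrays), 1 h and 72 h after 2,4-D (3 arrays each) for genes of 6 groups; the time axis is not to scale. The glycosyltransferase genes shown peak at 1 h, the auxin genes GH3.3, WES1, HAT2 and GH3.1 stay high, and autophagy and amino acid breakdown genes are mostly highest at 72 h.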

How the data were processed

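Leaf RNA of 24 pools was measured on Affymetrix ATH1 arrays. The authors' deposited series table holds log2 expression values per probe set, for which the submitters' processing notes name RMA; its version, its settings and which arrays entered it jointly are not stated. From these values 64 Affymetrix control probe sets were left out and 22746 were tested. limma 3.58.1 in R 4.3.3 fitted 1 mean for each of 6 groups over all 24 arrays, so that the groups share 1 estimate of the spread, with contrasts for ACX at 1 h against 0 h, the same in WT, the difference of both, and ACX at 72 h against 1 h. Tests were two-sided, p-values were adjusted within each contrast by Benjamini-Hochberg, and a probe set was called at an adjusted p below 0.05. The fitting code was tested on simulated data. Precision is limited by how few arrays each group has, among other things.

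Groups and replicate numbers came from the sample titles. The platform annotation gave 1 gene for 13513 probe sets, several for 503 and none for 8730, and 13436 matched the RefSeq gene table; only 1579 probe sets carried a symbol other than a locus code, so gene lists are covered in part, and 11 of 40 lists had no measured member, among them auxin receptors, SAUR and ethylene synthesis genes. Where several probe sets read 1 gene, the brightest by its mean across the 24 arrays was used. Named are the 12 largest changes each way with a symbol and arrays that do not overlap, the 2 largest each way with a locus code only, up to 6 called members of each list, all members of lists of at most 12, and up to 6 genes each way for the genotype difference. The members, lists and families were chosen with earlier results of these data known. Alternatives covered scaling, filters, the prior, array weights, the arrays used, a replicate block and leaving out each array.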

Additional observations from a re-analysis of the deposited data

Results flagged for a closer look

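In 3 of 138 genes tested, 1 of the 6 ACX arrays at 0 h stood apart from the other 5; by chance about 1 gene in 20 would have such an array. They were XPO1B in replicate 1 (7.1), AT5G66930 in replicate 3 (7.02) and CYP71B29 in replicate 6 (6.14).

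For 13 named genes the change at 1 h differed between ACX and WT by the test of the difference, given as the log2 change in ACX minus that in WT. The difference was positive for COR15A (2.74), AT5G03230 (2.15), EXPA16 (1.7), AT1G14200 (1.13), AT2G45600 (1.08) and AT5G18760 (0.74). It was negative for XTH18 (-2.77), AT5G48570 (-2.29), AT4G17470 (-2.27), AT3G55840 (-1.92), GTR1 (-1.42), AT1G69840 (-1.2) and APS3 (-1.15). Of these, the calls on AT5G18760, AT1G14200, AT3G55840, EXPA16, AT2G45600 and COR15A were lost in 9 to 21 of 30 alternative fits each.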

How the results depend on the processing

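Of 129 named genes called at 1 h in ACX, 100 kept their call in every alternative tried, 29 lost it in at least 1 and 0 reversed. The 5367 calls ranged from 4356 to 7205 over the alternatives with all probe sets and from 3478 (without ACX 1 h replicate 3) to 5746 on leaving out single arrays. With 1 probe set per gene, which tests fewer features, 2765 genes were called at 1 h, 791 of them at least 2-fold, 18 for the genotype difference and 5704 for 72 h against 1 h, and without the lowest 50% of probe sets the last count was 6939. The 33 calls of the genotype difference were the least stable. They became 322 with array weights, 17 with 0 h replicates 1 to 3 only, 1122 with 0 h replicates 4 to 6 only and 70 with ACX 0 h replicates 1, 2, 4 and 5 (the last chosen after seeing the data). Leaving out single arrays gave 6 (without ACX 1 h replicate 1) to 138 (without WT 0 h replicate 3), with 9 without WT 1 h replicate 1 or 2, 15 without WT 0 h replicate 4 or 6, 19 without ACX 0 h replicate 5 and 21 without WT 0 h replicate 1. The cause was not tested. Whether replicate numbers pair the arrays was not settled. Deviations of ACX 1 h arrays from their mean correlated with those of the same-numbered 0 h arrays at 0.29, -0.16 and 0.36. Arrays with different numbers were not compared in this way. On the first principal component ACX 1 h replicates 1 to 3 read 45.1, 62.9 and 75.6. At 0 h ACX replicates 1 to 3 read -37.2, -29.7 and -7.02, and replicates 4 to 6 read -33, -24.4 and -4.23. WT arrays did not rise in this order, and a shared batch was not tested. A replicate block gave 4798 calls at 1 h, 9979 for 72 h against 1 h and 18 for the genotype difference. Leaving out 1 array moved the changes of UGT73B4 (3.11 to 4.25), GSTU25 (2.63 to 4.26) and UGT76B1 (2.33 to 3.71) by more than 1.5 times in fold size, the values in brackets being log2 changes. The calls lost most often were those on SBTI1.1 (14 alternatives), AIM1 (11), TAPX (10), YUC2 (9), CSLD2, PEX4 and FMA (8 each), TUB9 (7), CYP71B34 (6), LHCB4.2 (5), and RCA, nad5 and psbH (4 each). Without ACX 1 h replicate 3, 0 of 7 nuclear photosynthesis genes, 4 of 69 plastid genes, 2 of 51 glycosyltransferase genes and 3 of 23 TBL genes were lower. Arrays give no read depth, and the share of probe sets above background was not analysed here.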

Other observations

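Several genes outside the groups above were chosen after their values were seen. Fes1A, a partner of cytosolic HSP70, read 6.90 to 7.57 at 0 h and 9.31, 9.91 and 9.68 at 1 h (log2 change 2.37, SE 0.26, adjusted p = 6.75e-07). The nuclear export receptor gene XPO1B rose by 2.75 (SE 0.13, adjusted p = 1.08e-12), the endosomal sorting gene VPS20.1 by 2.59 (SE 0.22, adjusted p = 1.33e-08), and FDH, a mitochondrial formate dehydrogenase gene, by 1.79 (SE 0.15, adjusted p = 8.51e-09). FDH rose further by 72 h, whereas XPO1B (-3.16), Fes1A (-1.65) and VPS20.1 (-1.17) were lower at 72 h than at 1 h. NAI2 and PYK10, whose products belong to the endoplasmic reticulum bodies that store glucosidases, fell, with changes of -1.98 (adjusted p = 3.53e-05) and -1.77 (adjusted p = 0.0344).

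Within the glycosyltransferase family UGT78D1 (-1.47) and UGT78D2 (-0.85), which glycosylate flavonols, UGT74B1 (-1.22), of glucosinolate synthesis, and UGT72B3 (-0.71) fell, while UGT76E12 (3.22) and UGT84A3 (2.34) rose. These members were also picked after their values were seen.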
